A study of Mus musculus with 6 samples.

Results

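Aquaporins are membrane channels that let water, and for some members glycerol, cross the lipid bilayer. The 9 aquaporin mRNAs described here, Aqp1, Aqp2, Aqp3, Aqp4, Aqp5, Aqp6, Aqp7, Aqp8 and Aqp11, were chosen by gene symbol, and all 9 had a row among the 18437 mRNAs listed in at least 1 of 6 Ribo-seq tables. Ribo-seq sequences the mRNA fragments that translating ribosomes protect, so a level here combines the amount of an mRNA with how heavily it is translated, and RNA-seq was not analysed here. All 6 libraries came from untreated WT mice of the strain C57BL/6J that were 4 weeks old, with 1 library for each of 6 tissue labels, namely small intestine, colon, kidney, lung, heart and brain. The labels do not say how many animals went into a library. Levels are given as RPKM, the number of footprints on a coding sequence (CDS) scaled to the length of that CDS and to the footprints on all CDSs, so that different aquaporins can be set side by side. Since each label had 1 library, replicate error could not be estimated and tissues were not tested against each other. The intervals given are exact 95% Poisson intervals for a level and exact conditional binomial intervals for a ratio of levels, and both cover counting error only. In whole tissue, fewer cells of a type and less RNA per cell cannot be told apart.

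The tissue labels were checked with 17 lists of cell type markers, because an aquaporin can be assigned to an organ only as well as its library. The labels heart and lung held up, with 5 of 5 cardiomyocyte markers highest in the library labelled heart and 9 of 10 alveolar markers highest in that labelled lung. The other 4 labels did not. Kidney markers were highest in the library labelled colon, which held 16 of 17 markers of the proximal tubule, thick ascending limb and intercalated cell. The principal cell list, not counted in these, was more divided, with 3 of 5 genes highest under colon and 2 under lung, and it shifted with the scaling. Markers of the colonic epithelium, 8 of 10 from the colonocyte and goblet cell lists, were highest in the library labelled kidney. All 6 enterocyte markers were highest in the library labelled brain, and 11 of 13 neuron and astrocyte markers in that labelled small intestine. The choroid plexus list, also not counted, was split, with 2 of 5 genes highest under small intestine, 2 under colon and 1 under lung. The libraries are therefore named by their labels throughout, with the markers they carry beside them. Reads on CDSs numbered from 4504853 in the library labelled colon to 10635031 in that labelled brain.

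**Figure D1:**
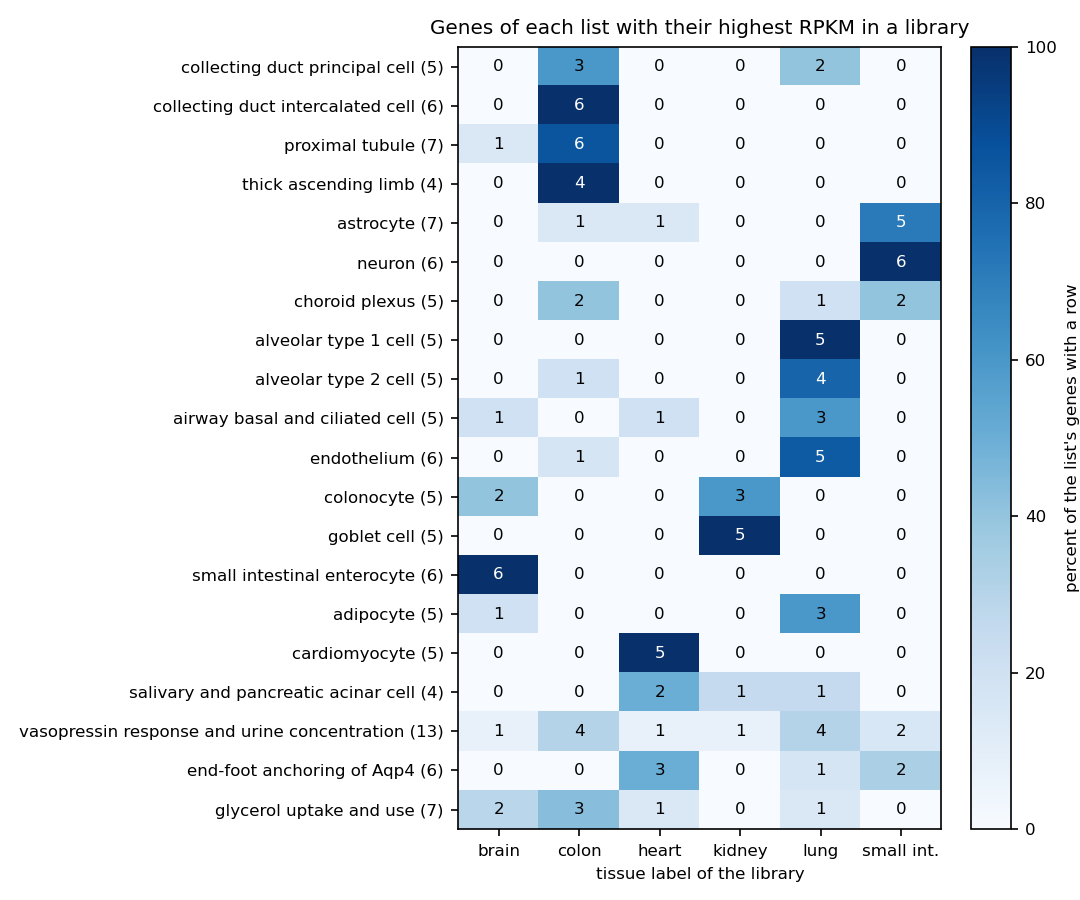
For each list of marker or pathway genes (rows, with the number of genes that have a row in brackets), the number whose RPKM was highest in each library (columns, by tissue label), shaded by percent of the list. The intercalated cell list sits entirely under the label colon (6 of 6), the enterocyte list under brain (6 of 6) and the neuron list under small intestine (6 of 6).

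Each aquaporin is known for particular cells. Aqp1 is constitutively open and lines capillary endothelium, the proximal tubule and the choroid plexus; Aqp2 is inserted into the apical membrane of collecting duct principal cells in response to vasopressin, while Aqp3 and Aqp4 form the basolateral exit of the same cells. Aqp4 is also the water channel of astrocyte end-feet, Aqp5 that of alveolar type 1 cells and secretory glands, Aqp6 an intracellular channel of intercalated cells, and Aqp8 a channel of the surface epithelium of the colon. Aqp3 and Aqp7 are aquaglyceroporins, which conduct glycerol as well as water, and Aqp11 is a distant member that resides in the endoplasmic reticulum.

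The pore of an aquaporin is formed by a pair of short loops, each of which carries the residues Asn-Pro-Ala (NPA) or a variant of them. The NPA box was held in both loops by 7 of the members. Of the other members, Aqp11 held NPC in the first loop and Aqp7 held NAA and NPS. The stretch around the second box is shown for each member whose sequence can be printed, together with the first box of Aqp7 and of Aqp11, which depart from NPA. Sequences are 30 bases of CDS read 5′ to 3′ on the coding strand from the GRCm39 genome with the GENCODE M39 annotation, with the 9 bases of the box in capitals.
Aqp1, residue 192, chr6:55322813-55322842, plus strand: tgcggtatcAACCCTGCCcggtcatttggc
Aqp2, residue 184, chr15:99480996-99481025, plus strand: tgctccatgAATCCAGCCcgctccctggct
Aqp5, residue 185, chr15:99491142-99491171, plus strand: tgttccatgAACCCAGCCcgatctttcggc
Aqp6, residue 193, chr15:99500865-99500894, plus strand: tgttccatgAACCCAGCCcgctccttcggc
Aqp8, residue 210, chr7:123065825-123065854, plus strand: gcctgcatgAACCCTGCTcgtgcctttgga
Aqp3, residue 215, chr4:41093829-41093858, minus strand: tatgccgtcAACCCTGCCcgtgactttgga
Aqp7, residue 211, chr4:41034801-41034830, minus strand: tatgcaatcAACCCATCCcgtgacctgcct
Aqp7, first box, residue 79, chr4:41035599-41035628, minus strand: gcccacatgAATGCCGCAgtgactttcacc
Aqp11, residue 216, chr7:97378248-97378277, minus strand: gcattgtttAACCCAGCGctggcactttct
Aqp11, first box, residue 99, chr7:97386880-97386909, minus strand: acagctagcAACCCGTGCggcgtgatgatg
In Aqp3 and Aqp7 the codons cgt and gac follow the second box, for arginine and the aspartate by which aquaglyceroporins are recognised. The water channels Aqp1, Aqp2, Aqp5 and Aqp6 have a serine codon in place of the aspartate, and Aqp8 and Aqp11 an alanine codon. Aqp5 and Aqp6 shared 28 of the 30 bases around this box, Aqp2 and Aqp6 shared 24 and Aqp2 and Aqp5 shared 22. The genes Aqp2, Aqp5 and Aqp6 lie side by side on chromosome 15 within 26423 bases, with 3515 bases between Aqp2 and Aqp5 and 6364 between Aqp5 and Aqp6. No window of 28 bases in the CDS of any of the 9 members occurred exactly in another mRNA of the tables. With up to 2 mismatches, 68 of 7422 such windows matched another member, 9 in Aqp2, 27 in Aqp5 and 32 in Aqp6, all among these 3 genes, so reads there could be less certain.

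Of the 9 members, 5 were highest in the library labelled colon (Aqp1, Aqp2, Aqp3, Aqp6 and Aqp7), 3 in that labelled kidney (Aqp4, Aqp8 and Aqp11) and Aqp5 in that labelled lung. Aqp7 is counted by its value, although its order with the library labelled heart was within counting error. No member was highest in the libraries labelled brain, heart or small intestine. Of all 13752 mRNAs with at least 50 reads, 15.2% were highest under the label colon, 7.34% under kidney, 26.7% under lung, 16.4% under brain, 12.6% under heart and 21.8% under small intestine. A gene was called restricted when its highest library exceeded the next by at least 4-fold, with values under 3 reads set to 3 reads, among genes with at least 50 reads over the 6 libraries. Of the 8 members with that many reads, 5 passed (62.5%), namely Aqp2, Aqp5, Aqp6, Aqp8 and Aqp11, against a background of 21.5% of 13752 mRNAs. All 5 reached 50 reads mainly through their highest library. It held 102 of 105 reads of Aqp2, 56 of 57 of Aqp6 and 43 of 51 of Aqp11. For Aqp5 it held 2005 of 2048 and for Aqp8 731 of 776. Their passing is therefore tied to that limit, and the share of members describes these genes without setting them apart. Aqp1, Aqp3 and Aqp4 did not pass. By library, the background was 2.33% of mRNAs highest and past 4-fold under the label colon, 0.822% under kidney and 4.71% under lung.

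**Figure D2:**
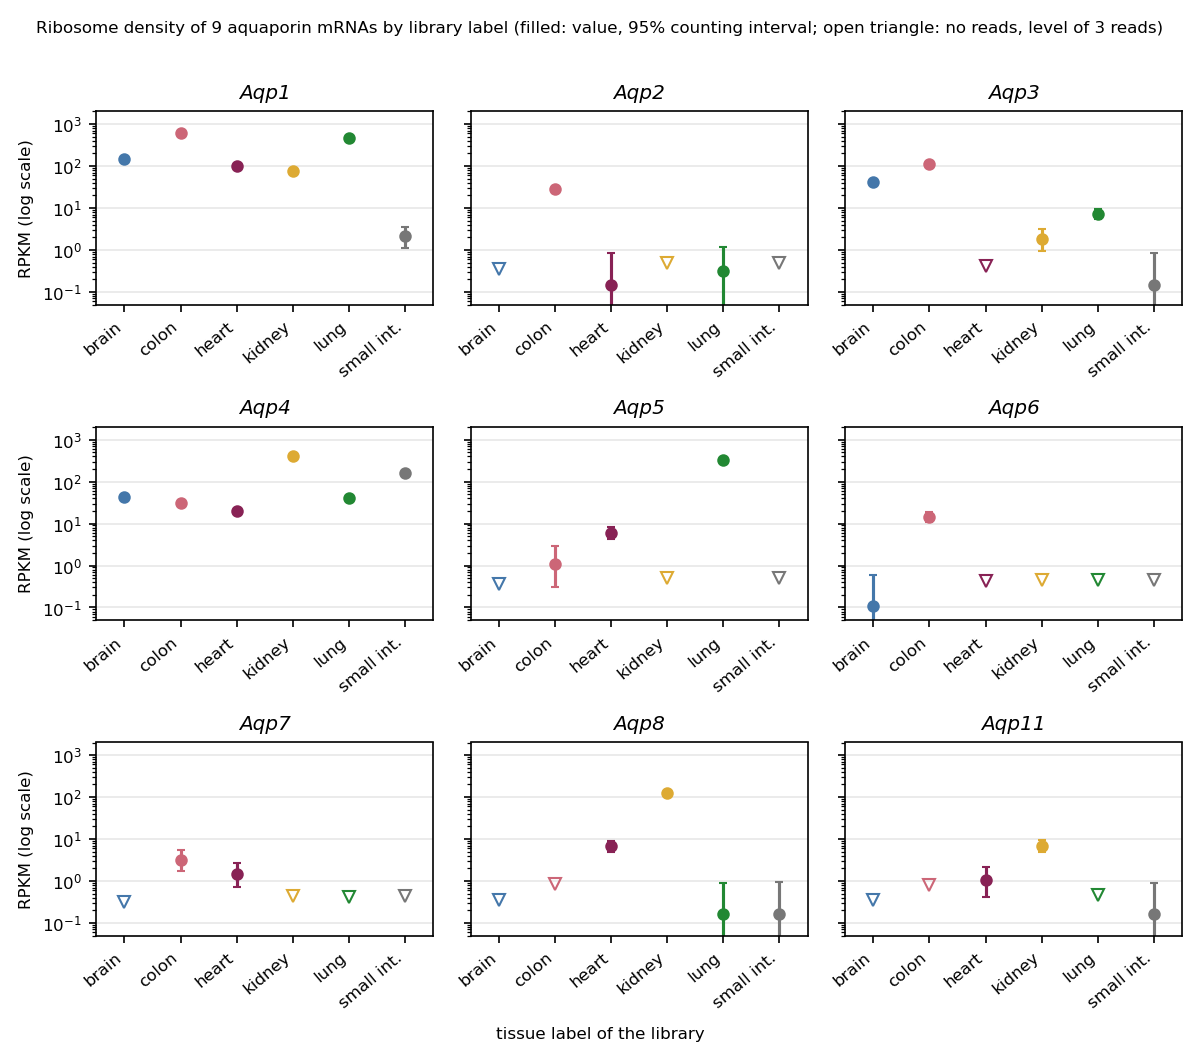
RPKM on a log scale (y axis) of each aquaporin in the 6 libraries (x axis, tissue label), with filled points for measured values, bars for 95% counting intervals and open triangles for the level of 3 reads where a library had none. Aqp1 and Aqp4 had reads in all 6 libraries, whereas Aqp6 had 56 of its 57 reads in the library labelled colon.

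**Figure D3:**
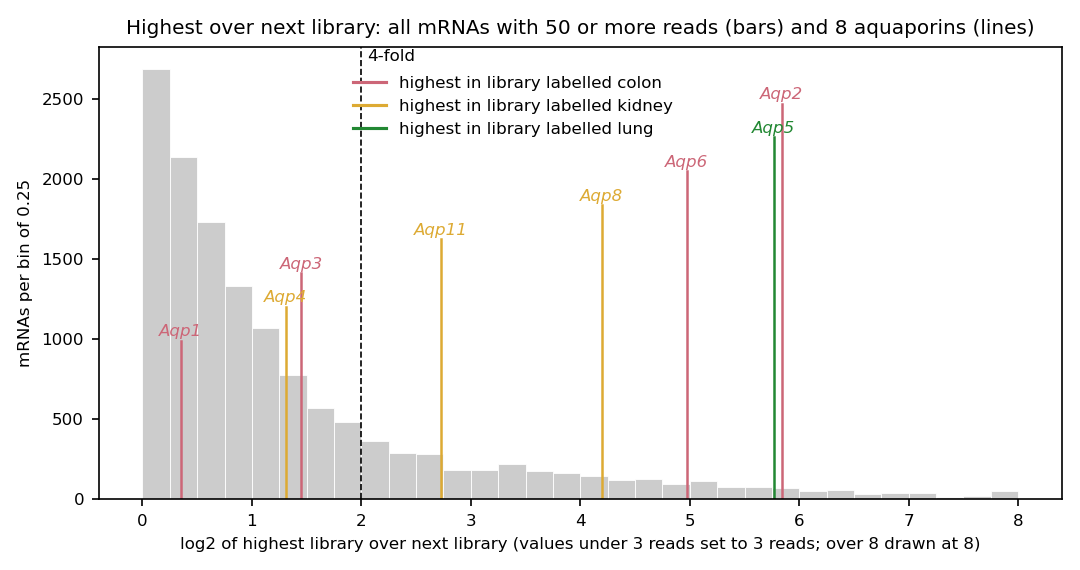
Number of mRNAs (y axis) by the log2 ratio of the highest to the next library (x axis, levels under 3 reads set to 3 reads) for all 13752 mRNAs with at least 50 reads, with lines for 8 aquaporins coloured by their highest library. Aqp1, Aqp3 and Aqp4 lie left of the dashed line at 4-fold and the other 5 lie right of it.

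Aqp2 (ENSMUSG00000023013, chr15:99476936-99485016, plus strand, 4 exons), the vasopressin-regulated channel of the collecting duct, was read almost entirely in the library labelled colon, the library with kidney markers. It had 27.9 RPKM there (22.7 to 33.8, from 102 reads), 0.318 RPKM from 2 reads in that labelled lung and 0.150 RPKM from 1 read in that labelled heart. The libraries labelled brain, kidney and small intestine gave no reads, where 3 reads would have been 0.347, 0.487 and 0.483 RPKM. The library labelled colon was thus 87.5-fold above that labelled lung (23.6 to 732). It was 57.2-fold or more above the level of 3 reads in each library with none, a comparison that is not a lower bound. In the library labelled kidney, where colonic markers were highest, Aqp2 was not detectable at this depth.

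Principal cell markers were in part shared with other libraries. Of the 5 with a row, 3 were highest in the library labelled colon, but 1 under TPM, upper quartile or median-of-ratios scaling or without Kri1, where Hsd11b2 and Fxyd4 moved to that labelled kidney. The potassium channel Kcnj1 was past 4-fold under the label colon with 196 RPKM. Hsd11b2, the enzyme that shields the mineralocorticoid receptor, had 26.6 RPKM under the label colon and 22.7 RPKM under kidney. Scnn1g, a subunit of the epithelial sodium channel, had 34.8 RPKM under the label colon and 307 RPKM under lung. The vasopressin receptor gene Avpr2 had no row in any table, so it has no level here. The fuller list for vasopressin response and urine concentration had 13 of 14 genes with a row, of which 4 were highest in the library labelled colon. Past 4-fold among those were the urea transporter Slc14a2 at 114 RPKM, the loop cotransporter Slc12a1 at 724 RPKM and the distal cotransporter Slc12a3 at 149 RPKM. Another 4 of the 13 were highest in the library labelled lung.

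Aqp3 (ENSMUSG00000028435, chr4:41092722-41098183, minus strand, 6 exons), the basolateral aquaglyceroporin, was divided between libraries with kidney and with intestinal markers. It had 113 RPKM in the library labelled colon (103 to 124, from 445 reads) and 41.2 RPKM in that labelled brain (37.2 to 45.6, from 384 reads). The next values were 7.24 RPKM under the label lung (49 reads), 1.81 RPKM under kidney (12 reads) and 0.149 RPKM under small intestine (1 read). No reads were found under the label heart, and the library labelled colon was 269-fold above the level of 3 reads there. The ratio of the library labelled colon to that labelled brain was 2.74 (2.38 to 3.14). The library labelled brain carried enterocyte markers, and it exceeded the other intestinal library, labelled kidney, by 22.8-fold (12.9 to 44.5).

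Aqp6 (ENSMUSG00000043144, chr15:99499075-99503358, plus strand, 5 exons) was read in 2 libraries, 1 of them at a single read. It had 14.1 RPKM in the library labelled colon (10.7 to 18.4, from 56 reads) and 0.107 RPKM, from 1 read, in that labelled brain, a ratio of 132 (22.8 to 5314). It was 31.4-fold or more above the level of 3 reads in each of the 4 libraries with none, again not a lower bound. The intercalated cell list, which names the cells where Aqp6 is known, was highest in the same library for 6 of 6 genes, with 4 past 4-fold. The proton pump subunit Atp6v1g3 had 292 RPKM there and the transcription factor Foxi1 had 34.8 RPKM, and neither had a read in any other library. Pendrin (Slc26a4), a chloride-bicarbonate exchanger, had 114 RPKM there and 8.20 RPKM in the library labelled brain.

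Aqp7 (ENSMUSG00000028427, chr4:41032835-41048211, minus strand, 8 exons), the glycerol channel of adipocytes and of the straight proximal tubule, was close to the limit of detection. Only 24 reads were found, 13 in the library labelled colon (3.17 RPKM, 1.69 to 5.43) and 11 in that labelled heart (1.48 RPKM, 0.738 to 2.65). The ratio of 2.15 had an interval from 0.887 to 5.29, so the order of these libraries could not be told at this depth. The 4 remaining libraries gave no reads, and 3 reads would have been between 0.310 and 0.435 RPKM. Adipocyte markers were spread over libraries, with 3 of 5 highest under the label lung, where Aqp7 had no reads. The adipokine gene Adipoq was at 66.7 RPKM under lung, 28.2 RPKM under colon and 10.9 RPKM under heart. Lep, the gene for leptin, had no reads in any library. Of 7 genes of glycerol uptake and use with a row, none was past 4-fold, and the highest in the library labelled colon included glycerol kinase (Gk) at 106 RPKM against 42.7 RPKM under the label brain.

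Aqp1 (ENSMUSG00000004655, chr6:55313068-55325540, plus strand, 4 exons) was the most abundant aquaporin in 4 of the 6 libraries. It had 610 RPKM in the library labelled colon (585 to 636, from 2219 reads) and 479 RPKM in that labelled lung (462 to 496, from 2987 reads), a ratio of 1.27 (1.21 to 1.35). Lower values followed in the libraries labelled brain (150 RPKM, 1285 reads), heart (98.0 RPKM, 647 reads) and kidney (78.4 RPKM, 480 reads). The library labelled brain exceeded that labelled heart by 1.53-fold (1.39 to 1.68), and heart exceeded kidney by 1.25-fold (1.11 to 1.41). These differences were beyond counting error but not beyond scaling, since the order of heart and kidney turned with TPM (0.931) and with Kri1 left out of the total (0.983), and that of brain and heart with upper quartile scaling (0.871). The library labelled small intestine, the library with brain markers, stood far below the others with 2.11 RPKM from 13 reads, 37.2-fold under that labelled kidney (21.6 to 70.4). Among all mRNAs with reads, Aqp1 ranked 221 of 12325 in the library labelled colon and 10593 of 15028 in that labelled small intestine.

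The libraries high in Aqp1 were high in markers of different cells. The library labelled colon held 6 of 7 proximal tubule genes at their highest, led by the endocytic receptor Lrp2 at 2731 RPKM, the fatty acid transport protein Slc27a2 at 1877 RPKM and the phosphate transporter Slc34a1 at 1361 RPKM. The library labelled lung held 5 of 6 endothelial genes at their highest, all past 4-fold, with VE-cadherin (Cdh5) at 1139 RPKM and Pecam1 at 565 RPKM. Summed over the 6 endothelial genes, the level was 2379 RPKM under the label lung, 494 under heart, 193 under colon, 106 under brain, 81.3 under kidney and 66.9 under small intestine. Aqp1 in the library labelled heart was 20.5% of its level in that labelled lung. The endothelial genes there were at 15.0% (Tie1) to 22.1% (Cdh5) of theirs for 5 of 6, and Emcn was higher under heart, at 171% from 58 against 32 reads. Of 5 genes of the choroid plexus, where Aqp1 is also known, 2 were highest under the label small intestine, Ttr at 1819 RPKM and the transcription factor Otx2 with 5 reads. Kl (96.1 RPKM) and Folr1 (90.8 RPKM) were highest under colon and Clic6 (25.9 RPKM) under lung, or under kidney with TPM, median-of-ratios or upper quartile scaling or without Kri1. The part of each cell type in the level of Aqp1 was not tested.

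Aqp5 (ENSMUSG00000044217, chr15:99488532-99492710, plus strand, 4 exons) was highest in the library labelled lung and nearly restricted to it. It had 326 RPKM there (312 to 341, from 2005 reads), 5.99 RPKM under the label heart (4.26 to 8.20, from 39 reads) and 1.12 RPKM under colon (0.304 to 2.86, from 4 reads). No reads were found under the labels brain, kidney and small intestine. The library labelled lung was 919-fold, 656-fold and 661-fold above the level of 3 reads in them. The ratio of the library labelled lung to that labelled heart was 54.4 (39.7 to 76.8), and 35.0 with median-of-ratios or 26.2 with upper quartile scaling. All 5 alveolar type 1 markers were highest in the same library (4 with upper quartile or median-of-ratios scaling, where Hopx moved to heart), where the receptor gene Ager had 12635 RPKM and Rtkn2 229 RPKM, both past 4-fold. The type 1 markers Pdpn, Clic5 and Hopx were not past 4-fold. Of the alveolar type 2 list, 4 of 5 genes were highest under the label lung, 3 of them past 4-fold. Among these the surfactant protein gene Sftpc had 39331.5 RPKM, while Napsa was highest under the label colon. Which alveolar cells Aqp5 was read in was not tested. The airway list was less uniform, with 3 of 5 genes highest under the label lung. Of the acinar cell list, which mixes salivary and pancreatic genes, 1 of 4 genes with a row was highest there, with Amy1 at 9.70 RPKM. Prol1, also on that list, had no row under that symbol. The list thus covers the glands where Aqp5 is also known only in part.

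Aqp8 (ENSMUSG00000030762, chr7:123061514-123067227, plus strand, 6 exons), known from the colonic surface epithelium, was highest in the library labelled kidney, the library with colonic markers. It had 123 RPKM there (114 to 132, from 731 reads), 6.71 RPKM under the label heart (4.86 to 9.04, from 43 reads), and 0.165 and 0.167 RPKM, from 1 read each, under lung and small intestine. The ratio to the library labelled heart was 18.3 (13.5 to 25.6). No reads were found under the labels brain and colon. The library labelled kidney was 342-fold and 145-fold above the level of 3 reads in them. Of the 5 colonocyte markers, 3 were highest and past 4-fold in the same library, namely the carbonic anhydrases Car1 at 434 RPKM and Car4 at 371 RPKM and the chloride exchanger Slc26a3 at 367 RPKM. Goblet cell markers were highest there too, 5 of 5, but only Muc2 was past 4-fold. The other colonocyte markers, Tmigd1 at 1581 RPKM (past 4-fold) and Ceacam20 at 477 RPKM, were highest under the label brain. Summed over the 5 colonocyte genes, the level was 2141 RPKM under the label brain and 1582 RPKM under kidney.

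The libraries labelled kidney and brain both carried intestinal markers, and Aqp8 had reads in only the former. Slc26a3 in the library labelled brain had 62.2 RPKM, and the goblet gene Fcgbp reached 86.3% of its level in that labelled kidney. Over the 8 colonocyte and goblet genes highest under the label kidney, the level under the label brain was between 0.443% and 86.3%, with a median of 28.4%. The colonocyte genes Tmigd1 (1581 RPKM) and Ceacam20 (477 RPKM) are not among the 8 because they were highest under the label brain. Aqp8 had no reads there, and 3 reads would have been 0.293% of its level under the label kidney, below the lowest of the 8.

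Aqp4 (ENSMUSG00000024411, chr18:15522451-15544039, minus strand, 4 exons) was read in all 6 libraries and was highest in the same library as Aqp8. It had 403 RPKM in the library labelled kidney (389 to 418, from 3025 reads) and 163 RPKM in that labelled small intestine (154 to 172, from 1231 reads), a ratio of 2.48 (2.32 to 2.65). Lower values were 43.1 RPKM under the label brain (454 reads), 40.9 RPKM under lung (313 reads), 31.4 RPKM under colon (140 reads) and 19.5 RPKM under heart (158 reads). The libraries labelled brain and lung did not differ beyond counting error, with a ratio of 1.05 (0.911 to 1.22). The library labelled colon exceeded that labelled heart by 1.61-fold (1.27 to 2.03), an order that turned with upper quartile scaling (0.980). Aqp4 was thus highest in the library with colonic markers and next in the library with brain markers.

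Astrocyte markers were highest in the library labelled small intestine for 5 of 7 genes, all 5 past 4-fold, with the glutamate transporters Slc1a2 at 1393 RPKM and Slc1a3 at 376 RPKM and the filament gene Gfap at 33.3 RPKM. In the library labelled kidney, where Aqp4 was 2.48-fold higher, Slc1a2 had 5.92 RPKM and Gfap no reads. The astrocyte markers Gja1 and Aldh1l1, which were not highest under small intestine, had 145 and 32.1 RPKM under kidney. Gja1 was highest under heart (986 RPKM) and Aldh1l1 under colon (697 RPKM). Which cells Aqp4 was read in was not tested. Of 6 genes listed for the anchoring of Aqp4 at astrocyte end-feet, a list that includes the channel Kcnj10, 2 were highest under the label small intestine. Another 3 were highest under heart and 1 under lung, and none under kidney. The 2 under small intestine were Kcnj10 and Dtna, the latter at 15.7 RPKM and 1.62-fold above heart. The potassium channel Kcnj10, found with Aqp4 at end-feet, had 173 RPKM under the label small intestine and 4.41 RPKM under kidney.

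Aqp11 (ENSMUSG00000042797, chr7:97373213-97387524, minus strand, 3 exons), known from the proximal tubule, was not read in the library with kidney markers. It had 6.97 RPKM in the library labelled kidney (5.05 to 9.39, from 43 reads), 1.05 RPKM under heart (0.423 to 2.17, from 7 reads) and 0.161 RPKM, from 1 read, under small intestine. The library labelled colon gave no reads, where 3 reads would have been 0.819 RPKM. Counts were made on 1 mRNA per gene, so reads on other transcripts of Aqp11 would not be seen. The ratio of the library labelled kidney to that labelled heart was 6.63 (2.96 to 17.5), so its lower bound lay under 4. With 51 reads in all, Aqp11 was just inside the limit of 50 reads.

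Set side by side within a library, the aquaporins made up different mixtures. Their summed level was 854 RPKM under the label lung, 801 under colon, 613 under kidney, 234 under brain, 165 under small intestine and 133 under heart. Which of lung, colon and kidney had the highest sum changed with the scaling, colon leading with median-of-ratios scaling (712 against 683 for kidney and 611 for lung) and kidney with upper quartile scaling (859 against 708 and 596). Aqp1 was 76.2% of the sum under colon, 73.7% under heart, 63.9% under brain and 56.1% under lung. Aqp4 took 65.7% under kidney and 98.4% under small intestine. The second member was Aqp5 under lung with 38.2%, Aqp8 under kidney with 20.1% and Aqp3 under colon with 14.1%.

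**Figure D4:**
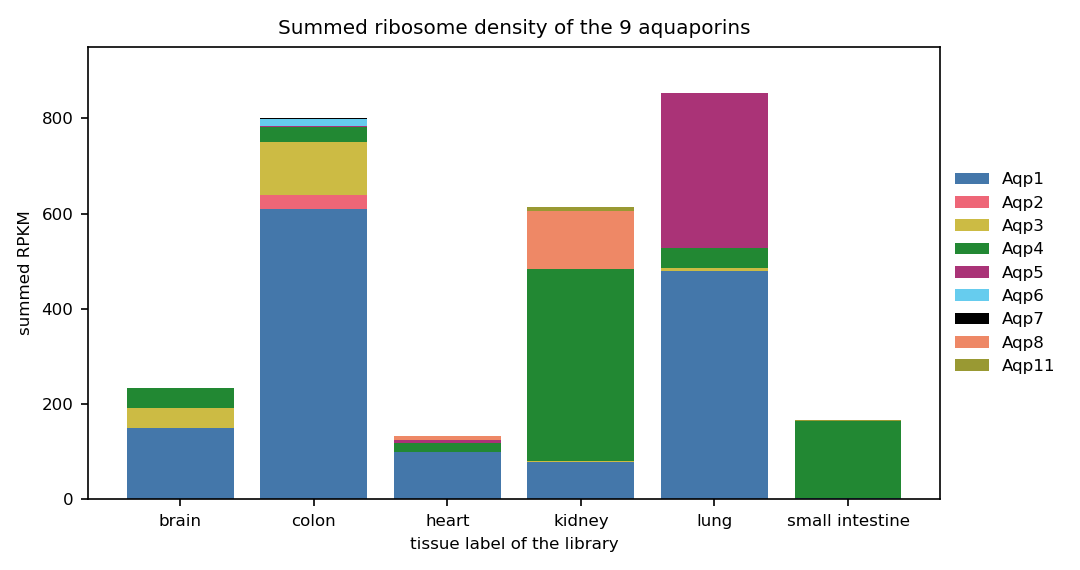
Summed RPKM (y axis, linear from 0) of the 9 aquaporins in each library (x axis, tissue label), stacked by member. Aqp1 fills most of the bars labelled brain, colon, heart and lung, Aqp4 fills 98.4% of that labelled small intestine, and Aqp5 and Aqp8 appear as large blocks only under lung and kidney.

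The library with kidney markers, labelled colon, had 6 members with at least 10 reads, the largest number. In it Aqp1 exceeded Aqp3 by 5.41-fold (4.89 to 6.01), Aqp3 exceeded Aqp2 by 4.05-fold (3.26 to 5.07), and Aqp2 exceeded Aqp6 by 1.97-fold (1.41 to 2.78). Aqp4 and Aqp2, exit and entry channel of the principal cell, did not differ beyond counting error there, with 31.4 and 27.9 RPKM and a ratio of 1.13 (0.867 to 1.47). Under the label kidney, Aqp4 exceeded Aqp8 by 3.27-fold (3.02 to 3.55) and Aqp8 exceeded Aqp1 by 1.57-fold (1.40 to 1.76). Under lung, Aqp1 exceeded Aqp5 by 1.47-fold (1.39 to 1.55). Under small intestine, Aqp4 exceeded Aqp1 by 77.2-fold (45.0 to 145), and no other member had more than 1 read. Under brain, Aqp4 and Aqp3 had overlapping intervals, and under heart so had Aqp8 and Aqp5.

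A member may be read in another library together with the markers of its organ, or apart from them. The libraries were compared by giving each gene as a percent of its highest library, with no test. For the 9 proximal tubule and thick ascending limb genes highest under the label colon, the level under brain was 0% to 6.29% (median 2.49%). Aqp3 and Aqp1 lay above all 9, at 36.6% (31.8 to 42.0) and 24.5% (22.9 to 26.3). The remaining proximal tubule gene, the receptor Cubn, is not among the 9 because it was higher under brain (269 RPKM) than under colon (154 RPKM), and so lay above both. Aqp6 lay at 0.756% from 1 read, and Aqp2 had no reads, where 3 reads would be 1.25%. For the 8 colonic genes highest under kidney, the level under small intestine was 0.188% to 6.44% (median 0.971%), and Aqp4 lay above all 8 at 40.4% (37.7 to 43.1). Under heart the same 8 genes were at 0.649% to 10.6% (median 2.15%). Aqp8, at 5.45% (3.91 to 7.42), lay within that range, and Aqp11, at 15.1% from 7 reads (5.73 to 33.8), had an interval that reached into it. The 9 alveolar genes highest under lung were at 0.147% to 89.3% under heart (median 2.17%), and Aqp5 was at 1.84% (1.30 to 2.52). What these low shares came from was not tested.

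**Figure D5:**
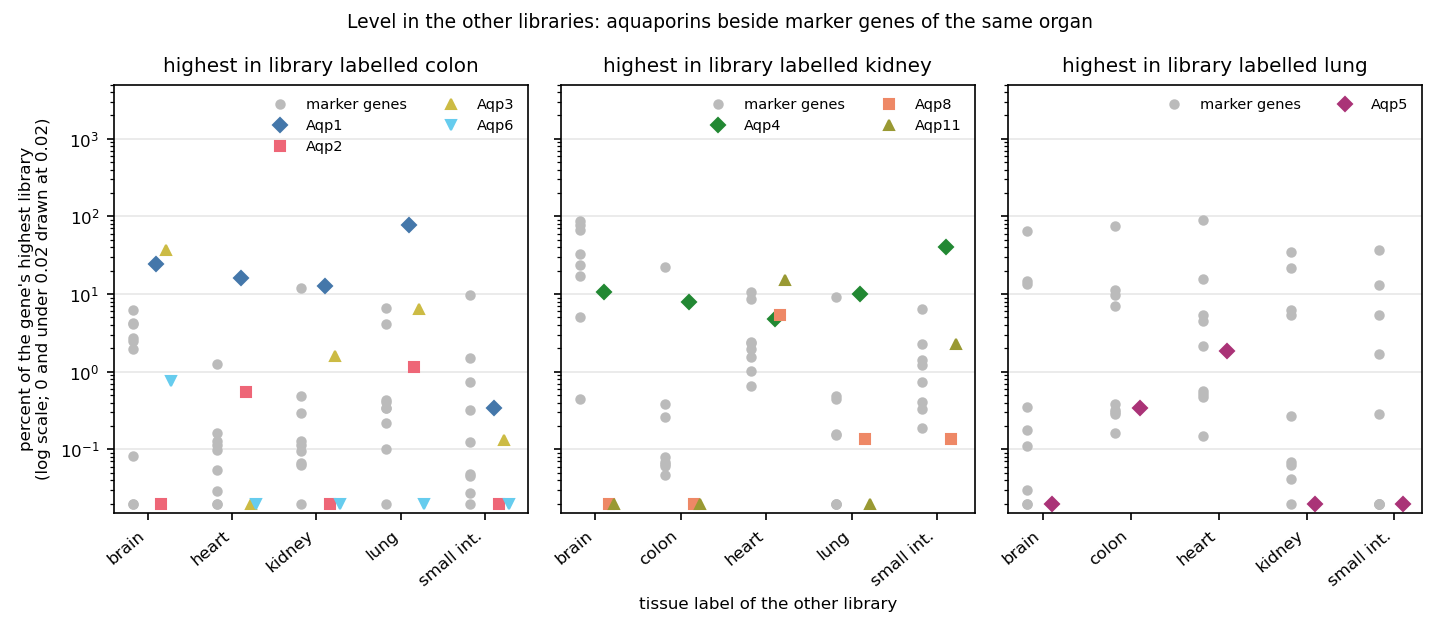
Level in each other library (x axis) as a percent of the gene's highest library (y axis, log scale, values under 0.02 drawn at 0.02) for marker genes (grey) and aquaporins (coloured), in 3 panels by highest library. Aqp1 and Aqp3 stand above the 9 kidney markers plotted in the library labelled brain, at 24.5% and 36.6%. Aqp4 stands above the 8 colonic markers plotted in that labelled small intestine, at 40.4%.

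Between the 2 libraries whose markers fitted their labels, lung and heart, 6 members had at least 10 reads in either. Aqp1 was 4.89-fold (4.49 to 5.33), Aqp4 2.10-fold (1.73 to 2.56) and Aqp5 54.4-fold higher under lung. Aqp3, with no reads under heart, was under lung 17.3-fold above the level of 3 reads in heart. Aqp8 was 40.6-fold higher under heart (6.91 to 1641, against 1 read). Aqp7, with no reads under lung, was under heart 3.46-fold above the level of 3 reads in lung. With upper quartile scaling, the ratio of lung to heart was 2.35 for Aqp1, 26.2 for Aqp5 and 1.01 for Aqp4, so the difference in Aqp4 rested on the scaling.

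For the 6 members with at least 100 reads, the mRNAs with the most similar profile (3 per member) were taken among 12558 mRNAs with at least 100 reads, by the root mean square difference of centred log2(RPKM + 1) over the 6 libraries. These are descriptions over 6 points, and several mRNAs restricted to 1 library necessarily resemble each other. Nearest to Aqp2 were Hoxc10 (0.15) and Sim1 (0.17). Nearest to Aqp5 were Scgb3a1 (0.31), the lung tight junction gene Cldn18 (0.40) and the surfactant protein gene Sftpb (0.45). Aqp8 had Gpr15lg (0.37), Retnlb (0.70) and Sycn (0.72), and Aqp1 had the fenestral diaphragm gene Plvap (0.64), Tgm2 (0.74) and Gimap4 (0.74). Aqp3 was nearest to fructokinase (Khk, 0.60), Glyat (0.61) and Vnn1 (0.65). Aqp4, whose high libraries carried colonic and brain markers, was nearest to the signal peptidase gene Sec11c (0.42), Nipal2 (0.48) and Pla2g3 (0.52).

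The rest of the family was hardly read. Aqp9, the aquaglyceroporin of liver, had 9 reads, all under the label kidney (1.23 RPKM, 0.564 to 2.34). Mip, the lens channel Aqp0, had 1 read, under heart, and Aqp12 had no row in any table.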

How the data were processed

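Ribo-seq was performed on 6 mouse tissues, with 1 library per tissue label. The authors deposited 1 RPKM value per mRNA, made from CDS reads. The Methods describe trimming with Cutadapt, removal of reads under 15 nt, STAR alignment against 1 mRNA per gene (that of longest CDS, Ensembl release 107, GRCm39), and removal of multi-mapped reads and of reads with over 2 mismatches. They describe macrophage libraries and are assumed for the tissues, whose processing notes name the same tools and build. An mRNA with a very large share of a library lowers the RPKM of all others there.

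Reads were recovered as RPKM times CDS length, scaled by a total for each library. That total was inferred by assuming that the smallest product above 0 in a library was 1 read. The recovered reads were whole within 0.01 for 100% of values and came to 4504853 to 10635031 reads per library. Reads carry no molecular identifiers. Gene symbols, coordinates and CDSs came from GENCODE M39, which held 18306 of the 18437 transcripts, and the CDS lengths of all 9 members matched. Groups are the labels of source tissue. No test was made. Members, marker lists and measures were chosen with earlier results of these data known. Named genes were the members, their family, the 2 to 4 highest genes of each list in its main library or a marker with no reads, and the 3 nearest mRNAs per member with 100 reads, of which 1 is not reported here. Other listed genes (such as Foxi1, Fxyd4, Adipoq, Amy1 and Hopx) were named after their values were seen. Alternatives covered scaling, depth, fold, read minimum, floor and likeness. Recovery of reads was checked on simulated counts that met the assumption of 1 read. The check therefore could not tell whether the deposited values met it. Python 3.11.15, numpy 2.4.6, scipy 1.17.1, pandas 2.3.3, matplotlib 3.10.9 and biopython 1.88 were used.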

Additional observations from a re-analysis of the deposited data

How the results depend on the processing

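The highest library of each of the 9 members was unchanged when Kri1 or the mitochondrially encoded mRNAs were left out of the denominator, with TPM, median-of-ratios or upper quartile scaling, and after thinning to the lowest total. Upper quartile scaling multiplied RPKM by 0.698 (lung) to 1.45 (heart) and median-of-ratios scaling by 0.715 to 1.14, which moved the ratio of Aqp1 between the libraries labelled colon and lung from 1.27 to 1.61 and 1.58. Of 16 neighbouring pairs of libraries in the members' orders, 4 turned under any of the 5 scalings, a comparison added after the data were seen. Members past 4-fold numbered 4 or 5 under these settings, with a pseudocount of 1 RPKM, and where the lower bound of the ratio had to reach 4. Aqp11, with 51 reads, was the member lost. At 2-fold 7 members passed against 5848 of all mRNAs, and at 10-fold 4 against 1601. Requiring at least 200 reads, an alternative added after the data were seen, left 2 of 5 members past 4-fold, against 18.5% of 10938 mRNAs, since Aqp2, Aqp6 and Aqp11 had fewer reads. After thinning, the ratio of Aqp7 was 4.33, from fewer than 24 reads. Upper quartile scaling lowered the ratio of Aqp2, with values under 3 reads set to 3, from 57.2 to 36.1 and that of Aqp6 from 31.4 to 19.8. Pearson correlation in place of the root mean square difference shared 2 of the 18 nearest mRNAs, namely Sec11c for Aqp4 and Gpr15lg for Aqp8. No paired analysis was possible because there was 1 library per label. Depth limits Aqp2, Aqp6, Aqp7 and Aqp11 most, and no library could be left out of a label without losing it.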
